A study of Homo sapiens with 4 samples.

Results

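The genes described here are 36 genes of sugar breakdown and of the response to low oxygen, of 63677 genes counted. They were chosen as a list of symbols, 17 for enzymes of glycolysis and lactate formation and 19 for other hypoxia response genes. The choice was made with earlier results of these data known. They were measured in H929, an established human multiple myeloma line derived from malignant plasma cells. Total RNA came from 2 libraries of cells transduced with a short hairpin RNA (shRNA) against ILF2, whose product is an RNA-binding protein, and from 2 libraries of cells transduced with a non-silencing shRNA. The labels name no other treatment and no lowered oxygen, and all 4 libraries come from 1 cell line. The sources used here do not say whether 1 hairpin or 2 were used.

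Glycolysis splits glucose into pyruvate and yields ATP without oxygen, and lactate dehydrogenase turns pyruvate into lactate, which leaves the cell through monocarboxylate transporters. Prolyl hydroxylases (EGLN proteins) use oxygen to mark the alpha subunits of the hypoxia-inducible factors (HIF) for destruction. When oxygen falls the alpha subunits persist, bind DNA with ARNT and raise the genes of glycolytic enzymes, transporters and many other targets. Plasma cells, which secrete large amounts of antibody, and myeloma cells in the bone marrow are known for high glucose use.

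ILF2 itself had 107 and 114 CPM (counts scaled by TMM-adjusted library size) in the ILF2 shRNA libraries, against 717 and 733 CPM in the non-silencing libraries, so the target was lower as labelled. The libraries held 63459322 to 72977082 counted fragments. Fragments of mitochondrial genes made up 0.516% and 0.463% in the ILF2 shRNA libraries, against 0.351% and 0.307% in the non-silencing libraries, and the 5 most abundant features took 10.3% and 12.3% against 10.2% and 10.5%. Of 12 plasma cell markers, 11 were above 1 CPM and their summed level was 14942 and 15050 CPM with ILF2 shRNA, against 12713 and 13014 CPM. Within that sum JCHAIN alone had 7682 and 7594 CPM, against 5594 and 5937 CPM. In that list 6 markers were higher and 2, SDC1 and SLAMF7, lower, beside 10.2% and 10.1% of all genes tested. IRF4, PRDM1 and XBP1 were not called. Markers of T cells summed to 17.4 and 18.7 CPM against 9.49 and 8.70 CPM, of which CD3E was called higher and CD5 was at 0. Epithelial markers summed to 30.4 and 30.2 CPM against 25.3 and 24.3 CPM, with EPCAM at 0 and 1 marker called in each direction. Myeloid, stromal and erythroid markers stayed under 1 CPM in sum, with COL1A2, LUM and HBA2 at 0 and CSF1R called lower. With mitochondrial genes and small RNAs left out of the fit, each of the 34 genes described here that were tested kept its direction and call. Any other part of mitochondrial share, library makeup and markers in the results was not tested. No pair of libraries was a copy of another, the mean chi-square per gene being 16.5 between the ILF2 shRNA libraries and 8.21 between the non-silencing libraries. Nothing in the labels ties the replicates to separate transductions, and p-values measure the spread between these libraries.

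With ILF2 shRNA 14 of the 17 glycolytic enzymes were not called, with log2 fold changes from -0.15 to 0.08. Of these, GAPDH, PKM, LDHA and PFKP passed as lower in 3, 4, 2 and 4 of 16 alternative processing settings. Of the 34 members with enough fragments to be tested, 6 were higher and 3 lower (adjusted p under 0.05 in edgeR, with all 19142 tested genes in the adjustment). That is 26.5% of the tested members, beside 20.3% of all genes tested, 10.2% of which were higher and 10.1% lower. The rises were those of ALDOC, ENO2 and HK2 among the enzymes and EPAS1, PDK1 and BNIP3 among the hypoxia response genes. The falls were those of SLC16A3, BHLHE40 and HIF1A. In a culture measured in bulk, fewer cells expressing a gene and less of its RNA per cell cannot be told apart.

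**Figure D1:**
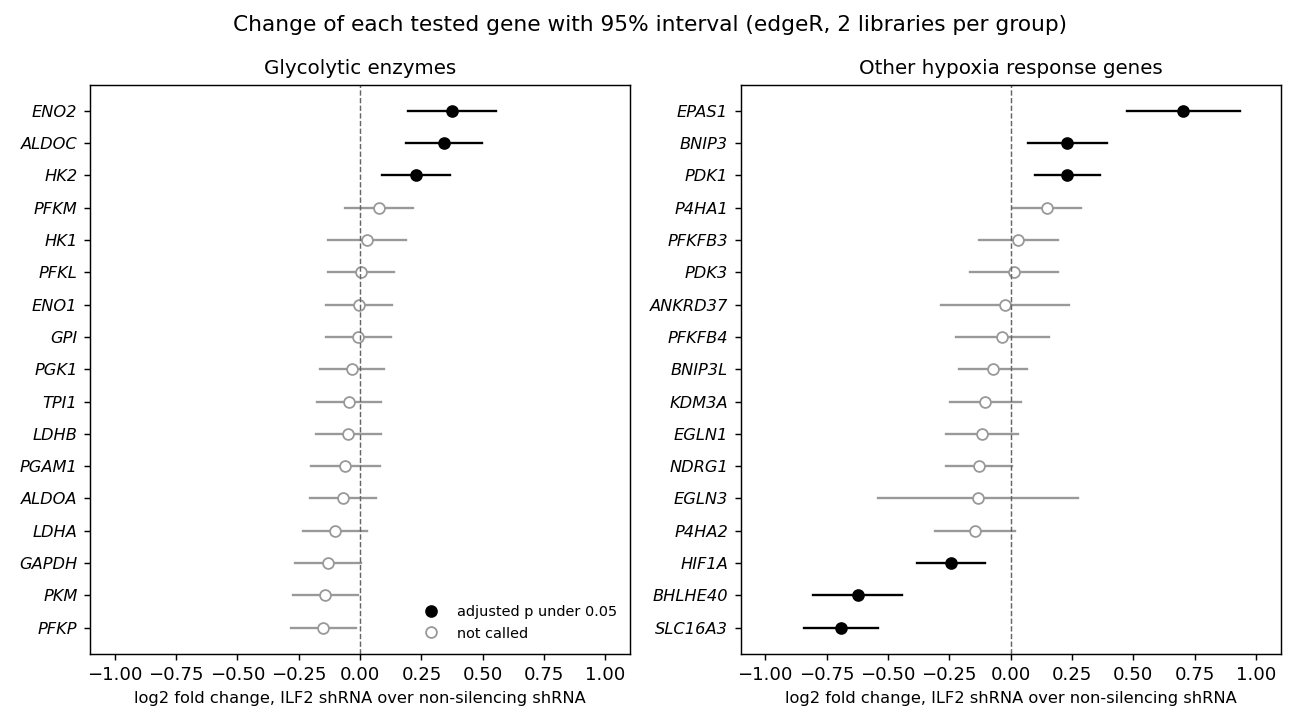
Log2 fold change of ILF2 shRNA over non-silencing shRNA (horizontal axis) for each of the 34 tested genes, with glycolytic enzymes on the left and other hypoxia response genes on the right, and bars for 95% intervals (2 libraries per group). Filled points passed an adjusted p under 0.05 (3 of 17 enzymes, all higher, and 6 of 17 hypoxia response genes, 3 in each direction), and open points did not.

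Sequence before the gene starts is shown for 5 called members, since HIF dimers bind short elements whose core is ACGTG or GCGTG. RefSeq (GRCh38.p14) gave 62 windows of 250 bases before a start for 34 of the 36 members, several starts being listed for some genes. Either core, on either strand, stood in 61.3% of these windows, beside 43.2% of all 35116 windows in the table, and ACGTG stood in 40.3% beside 18.5%. The palindrome CACGTG holds ACGTG on both strands and counts as 2 matches, and it was in 14.5% of member windows beside 6.34% of all. A match describes letters and is not a binding site, and members were partly chosen as known HIF targets. For each gene the window with most ACGTG matches is printed 5′ to 3′ on the gene's strand, ending at the base before the start, with matches to either core in capitals.
SLC16A3 (lower, chr17:82228792-82229041, plus strand): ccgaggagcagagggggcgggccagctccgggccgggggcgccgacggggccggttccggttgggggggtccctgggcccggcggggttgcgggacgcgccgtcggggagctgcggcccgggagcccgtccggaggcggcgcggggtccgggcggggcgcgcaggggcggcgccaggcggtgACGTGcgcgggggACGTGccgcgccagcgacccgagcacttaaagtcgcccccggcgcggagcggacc
BHLHE40 (lower, chr3:4979187-4979436, plus strand): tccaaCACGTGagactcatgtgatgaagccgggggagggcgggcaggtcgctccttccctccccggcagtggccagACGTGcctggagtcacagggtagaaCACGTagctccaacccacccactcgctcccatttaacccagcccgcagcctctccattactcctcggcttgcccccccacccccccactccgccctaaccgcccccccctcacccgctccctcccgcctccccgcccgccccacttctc
PDK1 (higher, chr2:172555840-172556089, plus strand): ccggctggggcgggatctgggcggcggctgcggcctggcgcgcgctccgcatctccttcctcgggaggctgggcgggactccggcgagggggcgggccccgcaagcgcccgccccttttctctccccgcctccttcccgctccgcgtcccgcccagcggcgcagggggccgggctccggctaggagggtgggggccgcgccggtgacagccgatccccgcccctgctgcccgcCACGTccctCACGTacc
BNIP3 (higher, chr10:131981924-131982173, minus strand): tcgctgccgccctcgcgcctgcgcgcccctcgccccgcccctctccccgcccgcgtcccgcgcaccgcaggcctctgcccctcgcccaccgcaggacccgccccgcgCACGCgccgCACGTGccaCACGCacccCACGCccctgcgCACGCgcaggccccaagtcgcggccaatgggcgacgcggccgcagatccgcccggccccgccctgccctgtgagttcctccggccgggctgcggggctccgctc
ALDOC (higher, chr17:28576896-28577145, minus strand): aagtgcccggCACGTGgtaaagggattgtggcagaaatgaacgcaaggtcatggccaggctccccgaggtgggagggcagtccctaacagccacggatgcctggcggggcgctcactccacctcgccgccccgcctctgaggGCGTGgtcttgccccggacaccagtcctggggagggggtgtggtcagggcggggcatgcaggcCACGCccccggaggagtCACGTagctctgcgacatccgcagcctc

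The printed window of the fallen SLC16A3 carried 2 matches, whose first bases lay 68 and 55 bases before the start. Another window of SLC16A3 held 3 matches, all GCGTG, and its remaining windows held fewer. The printed window of the risen PDK1 carried 2 matches, at 17 and 8 bases, and its other window none. BHLHE40 held 4 matches, ALDOC 5 and BNIP3 6, the last within 143 to 104 bases before the start. Over all windows of the called members, ACGTG stood in 6 of 8 windows of the higher genes (75%) and 2 of 8 of the lower genes (25%), and either core in 7 of 8 (87.5%) and 5 of 8 (62.5%). No ACGTG stood in the windows of EPAS1 or HIF1A. Counted by gene, ACGTG stood in at least 1 window of 5 of 6 higher and 2 of 3 lower genes. It did so in 22 of 34 members and in 5935 of all 27305 genes with a window. Either core did so in 6 of 6 and 3 of 3, beside 29 of 34 members and 12945 of all 27305 genes. Windows of 1 gene are not independent, and the difference between higher and lower genes was not tested.

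Among the glycolytic enzymes 3 of 17 were higher and 0 lower (17.6% called, beside 20.3% of all genes tested). Without adjustment 3 had p under 0.05 upward and 2 downward, and DESeq2 and limma-voom each called 0 lower. Without ILF2 shRNA replicate 2 there were 3 lower (PFKP, GAPDH and PKM), and with offsets for GC content and exon length there were also 3 (PFKP, PKM and LDHA). Higher calls numbered 2 without non-silencing replicate 1 and 1, that of ALDOC, without non-silencing replicate 2. In 9 of the 17 the groups did not overlap, 4 with ILF2 shRNA above and 5 below, where 28.5% and 28.0% of all genes tested did so. The median log2 fold change of the 17 enzymes was -0.03, beside -0.00 for all genes tested, and it was 0.016 without ILF2 shRNA replicate 1 and -0.065 without ILF2 shRNA replicate 2. The enzymes' summed level was 10191 and 11066 CPM in the ILF2 shRNA libraries and 11142 and 11061 CPM in the non-silencing libraries, so the groups overlapped.

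The first step, which traps glucose in the cell as glucose 6-phosphate, is carried by hexokinases. HK2 (ENSG00000159399, GRCh37 chromosome 2, 75061108 to 75120486), the hexokinase known for its induction in tumours and by hypoxia, had 129 and 129 CPM in ILF2 shRNA libraries, against 114 and 106 CPM in non-silencing libraries. Both ILF2 shRNA libraries lay above both others, a rise of 0.23 ± 0.07 (SE) on the log2 scale (adjusted p = 0.0114, edgeR). The call ended without either non-silencing library, which leaves 1 library in that group. The change of HK2 was then 0.28 without replicate 1 and 0.18 without replicate 2. The widely expressed HK1 had 26.8 and 29.4 CPM against 27.4 and 27.8 CPM, with overlapping groups (log2 fold change 0.03, edgeR adjusted p = 0.858). Per exon length HK2 was the more abundant hexokinase, at 21.3 FPKM (CPM per kilobase of exon) in ILF2 shRNA and 18.1 FPKM in non-silencing cells, against 4.56 and 4.47 FPKM for HK1. HK2 made up 83.0% and 81.7% of the summed FPKM of the pair with ILF2 shRNA, against 80.9% and 79.5%.

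GPI, which interconverts glucose and fructose 6-phosphates, and the phosphofructokinases, which carry the committed step, were not called. PFKP, the platelet-type form, led its trio at 73.1 FPKM in ILF2 shRNA and 81.1 FPKM in non-silencing cells. PFKP had 343 and 363 CPM, below the 404 and 379 CPM of the non-silencing libraries (log2 fold change -0.15, 95% interval -0.28 to -0.02; edgeR adjusted p = 0.105). PFKM, the muscle form, had 112 and 118 CPM against 107 and 111 CPM, and PFKL, the liver form, had 210 and 220 CPM against 223 and 207 CPM. The share of PFKP in the summed FPKM of the trio was 64.6% and 64.8% with ILF2 shRNA, against 67.9% and 67.1%, and the groups did not overlap.

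Aldolase splits fructose 1,6-bisphosphate, and its brain form ALDOC rose beside the abundant ALDOA. ALDOC (ENSG00000109107, chromosome 17, 26900133 to 26904282) had 39.1 and 44.3 CPM with ILF2 shRNA, against 33.3 and 32.5 CPM. All ILF2 shRNA values were above all non-silencing values, a rise of 0.34 ± 0.08 (SE) on the log2 scale (adjusted p = 0.00066, edgeR). The change ranged from 0.25 to 0.43 when each library was left out, and the call held in each of 16 alternative settings. ALDOA had 1209.6 and 1358 CPM with ILF2 shRNA and 1375 and 1317 CPM without, so its groups overlapped (log2 fold change -0.07, 95% interval -0.20 to 0.07). ALDOC therefore made up 6.35% and 6.42% of the pair's summed FPKM, against 4.85% and 4.93% in the non-silencing libraries. Whether the change of ALDOC differed from that of ALDOA was not tested.

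The middle of the pathway was close to level. Triose phosphate isomerase (TPI1) had 294 and 309 CPM in ILF2 shRNA libraries, against 309 and 312 CPM. GAPDH, which makes the NADH of glycolysis and is often used as a reference gene, had 1685 and 1914 CPM against 1979 and 1962 CPM. Both GAPDH values were below those of the non-silencing libraries, yet the gene was not called (log2 fold change -0.13, 95% interval -0.27 to 0.00; edgeR adjusted p = 0.179). GAPDH passed in 3 of 16 alternatives, with adjusted p (edgeR) of 0.00578 without ILF2 shRNA replicate 2, 0.0161 with the replicate block and offsets for GC content and length, and 0.0461 with a crossed pairing. Without ILF2 shRNA replicate 1 its adjusted p was 0.733 (edgeR). PGK1, which makes the first ATP, and the mutase PGAM1 had log2 fold changes of -0.03 and -0.06, with 95% intervals from -0.17 to 0.10 and from -0.20 to 0.08.

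Enolase followed the pattern of aldolase. The neuronal form ENO2 (ENSG00000111674, chromosome 12, 7022909 to 7032861) had 15.5 and 15.5 CPM with ILF2 shRNA, against 12.3 and 11.5 CPM. The groups did not overlap and ENO2 rose by 0.38 ± 0.09 (SE) on the log2 scale (adjusted p = 0.00114, edgeR). The call ended without non-silencing replicate 2, while the change lay between 0.33 and 0.42 when each library was left out. ENO1, the enzyme's main form, had 2615 and 2838 CPM against 2709.6 and 2760.1 CPM (log2 fold change -0.00, 95% interval -0.14 to 0.13). At 690 FPKM over all libraries ENO1 was the most abundant of the 36 genes per exon length and ranked 18 among 13194 tested protein-coding genes, with GAPDH at 634 FPKM at rank 21. ENO2 made up 0.544% and 0.503% of the summed FPKM of the pair with ILF2 shRNA, against 0.419% and 0.385%.

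The last steps make pyruvate and lactate. Pyruvate kinase M (PKM) had 1046 and 1177 CPM with ILF2 shRNA, against 1232 and 1220.5 CPM, and was not called (log2 fold change -0.14, 95% interval -0.28 to -0.01; edgeR adjusted p = 0.134). Without ILF2 shRNA replicate 2 it passed at -0.23 on the log2 scale (edgeR adjusted p = 0.00619). LDHA, the lactate dehydrogenase subunit known as a HIF target, had 993 and 999 CPM against 1076 and 1062 CPM. Its groups did not overlap, but the difference was small and not called (log2 fold change -0.10, 95% interval -0.23 to 0.03; edgeR adjusted p = 0.291). LDHB, the heart subunit, had 283 and 276 CPM against 282 and 296 CPM, with overlapping groups. LDHB held 37.3% and 36.5% of the pair's summed FPKM with ILF2 shRNA, against 35.3% and 36.7%, also overlapping.

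**Figure D2:**
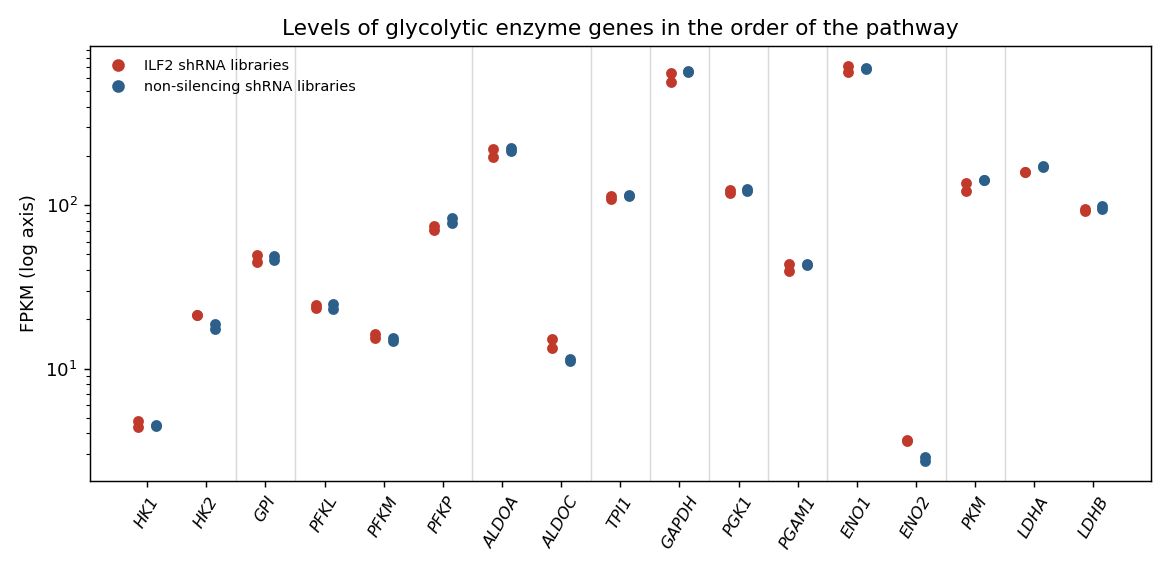
FPKM (log axis) of the 17 glycolytic enzyme genes in each library, in the order of the pathway, with grey lines between steps; ILF2 shRNA libraries are red and non-silencing libraries blue. ENO1 and GAPDH are highest at 690 and 634 FPKM over all libraries, and ENO2 and HK1 lowest at 3.20 and 4.52 FPKM.

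**Figure D3:**
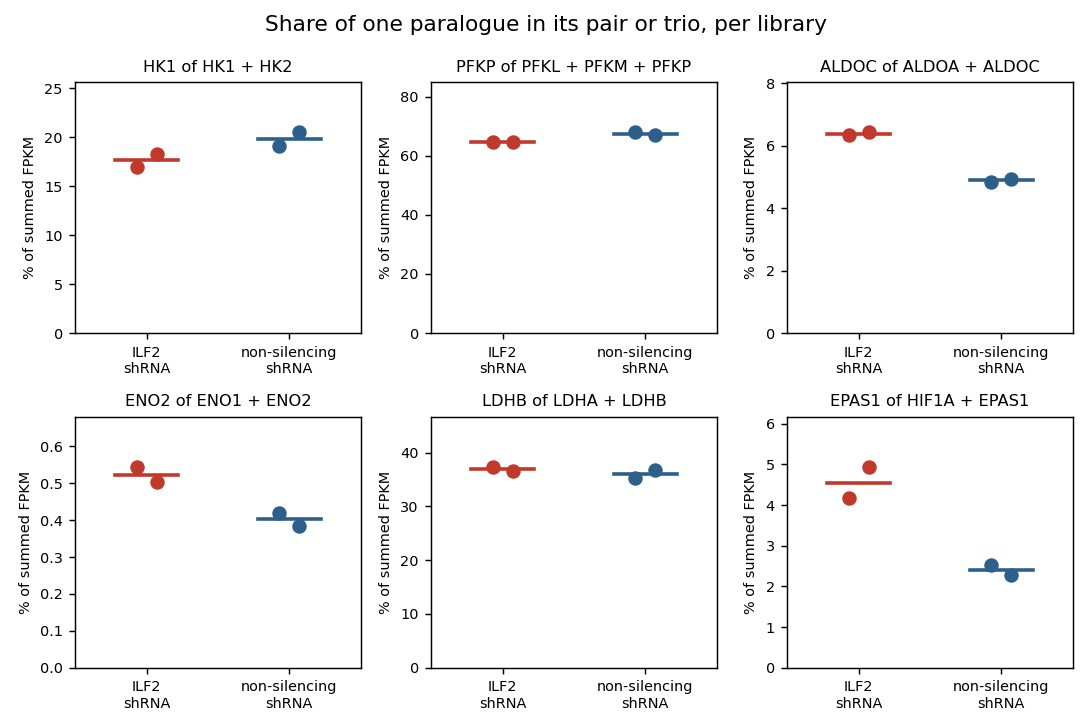
Share (%) of 1 paralogue in the summed FPKM of its pair or trio, for each library (points) with group means (lines). The shares of ALDOC, ENO2 and EPAS1 are higher in both ILF2 shRNA libraries, those of HK1 and PFKP are lower, and that of LDHB overlaps.

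Processed pseudogenes resemble several of these genes, and fragments that map to several places are taken to be left out of the counts. The pseudogene TPI1P1 held 32.1% as many fragments as TPI1 and BNIP3P1 held 26.2% as many as BNIP3, so the levels of TPI1 and BNIP3 are uncertain. With pseudogene counts added to their parents, no member gained or lost its call, and BNIP3 stood at 0.21 on the log2 scale (edgeR adjusted p = 0.0444). Exons shared with another gene on the same strand made up 5.95% of the exon length of GPI, 4.70% of PFKFB4 (with UCN2) and 2.87% of HIF1A.

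Of the 19 other hypoxia response genes 17 were tested, 3 higher and 3 lower (35.3% called, beside 20.3% of all genes tested). In this list 76.5% of tested genes had groups that did not overlap, 4 with ILF2 shRNA above and 9 below, beside 56.5% of all genes tested. The median log2 fold change was -0.073, and -0.048 without ILF2 shRNA replicate 2. DESeq2 called 2 higher and 3 lower, and edgeR called 1 higher and 2 lower when either non-silencing library was left out.

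The HIF alpha subunits, the transcription factors of the pathway, moved in opposite directions. HIF1A (ENSG00000100644, chromosome 14, 62162231 to 62214976) had 105 and 98.7 CPM in ILF2 shRNA libraries, against 118 and 123 CPM. Both values were below those of the non-silencing libraries, a change of -0.24 ± 0.07 (SE) on the log2 scale (adjusted p = 0.00726, edgeR). The call ended without non-silencing replicate 1, non-silencing replicate 2 or ILF2 shRNA replicate 2. The change of HIF1A lay between -0.28 and -0.20 when each library was left out. EPAS1 (ENSG00000116016, chromosome 2, 46520806 to 46613836), which encodes HIF-2 alpha and is known for its expression in endothelium, had 6.45 and 7.25 CPM with ILF2 shRNA, against 4.35 and 4.07 CPM. Its groups did not overlap and it rose by 62.9%, a change of 0.70 ± 0.11 (SE) on the log2 scale (adjusted p = 2.9e-06, edgeR). Leaving out each library moved the change of EPAS1 between 0.62 and 0.79, and the call held in each of 16 alternative settings. HIF1A remained far the more abundant, at 19.8 FPKM in ILF2 shRNA and 23.4 FPKM in non-silencing cells, against 0.939 and 0.576 FPKM for EPAS1. The share of EPAS1 in their summed FPKM was 4.16% and 4.93%, against 2.54% and 2.29%. HIF protein is set mainly by its stability, which these RNA counts do not measure.

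The oxygen sensors were not called. EGLN1, the main HIF prolyl hydroxylase, averaged 52.5 ± 3.66 CPM with ILF2 shRNA, against 57.0 ± 1.43 CPM (SD, n = 2; log2 fold change -0.12, 95% interval -0.26 to 0.03). EGLN3, a sensor that hypoxia itself induces, was near 1 CPM in every library, with 1.04 and 1.17 CPM against 1.21 and 1.21 CPM. Of 16 further HIF pathway regulators, 15 were tested and 1 was called, lower (6.67%, beside 20.3% of all genes tested). That gene, ARNT2, a partner of the alpha subunits known from neurons, had 3.81 CPM in ILF2 shRNA and 4.84 CPM in non-silencing cells (log2 fold change -0.34, SE 0.12; edgeR adjusted p = 0.0376). DESeq2 (adjusted p = 0.194) and limma-voom (adjusted p = 0.0564) did not call it, nor did edgeR without non-silencing replicate 2 (adjusted p = 0.406), ILF2 shRNA replicate 1 (adjusted p = 0.106) or ILF2 shRNA replicate 2 (adjusted p = 0.108).

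The largest fall among the members was that of SLC16A3, which encodes MCT4, the monocarboxylate transporter that exports lactate and is induced by hypoxia. SLC16A3 (ENSG00000141526, chromosome 17, 80186273 to 80219005) had 32.3 and 32.4 CPM with ILF2 shRNA, against 54.3 and 50.1 CPM. The groups lay far apart compared with the spread within them. Its level fell by 38.0%, a change of -0.69 ± 0.08 (SE) on the log2 scale (adjusted p = 1.4e-10, edgeR). BHLHE40 (ENSG00000134107, chromosome 3, 5020801 to 5027008), a transcriptional repressor of the circadian clock and a HIF target, had 10.5 and 11.6 CPM against 17.9 and 16.3 CPM. It too was lower in both libraries, with a change of -0.62 ± 0.09 (SE) on the log2 scale (adjusted p = 2.7e-07, edgeR). The calls of SLC16A3 and BHLHE40 held in each of 16 alternative settings, with changes from -0.75 to -0.60 and from -0.70 to -0.55.

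Of the hypoxia targets that act on mitochondria, PDK1 and BNIP3 rose. PDK1 (ENSG00000152256, chromosome 2, 173420101 to 173489823), a kinase that switches off pyruvate dehydrogenase, had 525 and 497 CPM with ILF2 shRNA, against 424 and 446 CPM. The groups did not overlap and PDK1 rose by 0.23 on the log2 scale (SE 0.07; edgeR adjusted p = 0.00731). The call of PDK1 ended without either non-silencing library, while its change lay between 0.19 and 0.27 when each library was left out. Its relative PDK3 had 12.6 and 13.5 CPM against 12.9 and 13.0 CPM. BNIP3 (ENSG00000176171, chromosome 10, 133781578 to 133795435), a mitochondrial outer membrane protein that drives mitophagy, had 28.0 and 29.5 CPM against 24.3 and 24.6 CPM. Its rise was 0.23 ± 0.08 (SE) on the log2 scale (adjusted p = 0.0300, edgeR), which DESeq2 did not call (adjusted p = 0.052). The call of BNIP3 also ended without non-silencing replicate 1, non-silencing replicate 2 or ILF2 shRNA replicate 2. Its change lay between 0.19 and 0.27 when each library was left out. The related mitophagy receptor BNIP3L had 87.0 and 81.4 CPM against 89.5 and 87.5 CPM and was not called. Mitochondrial genes also took a larger part of the fragments in both ILF2 shRNA libraries, as given above. The calls of PDK1 and BNIP3 held with mitochondrial genes and small RNAs left out. Any other part of the mitochondrial share in their changes was not tested.

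**Figure D4:**
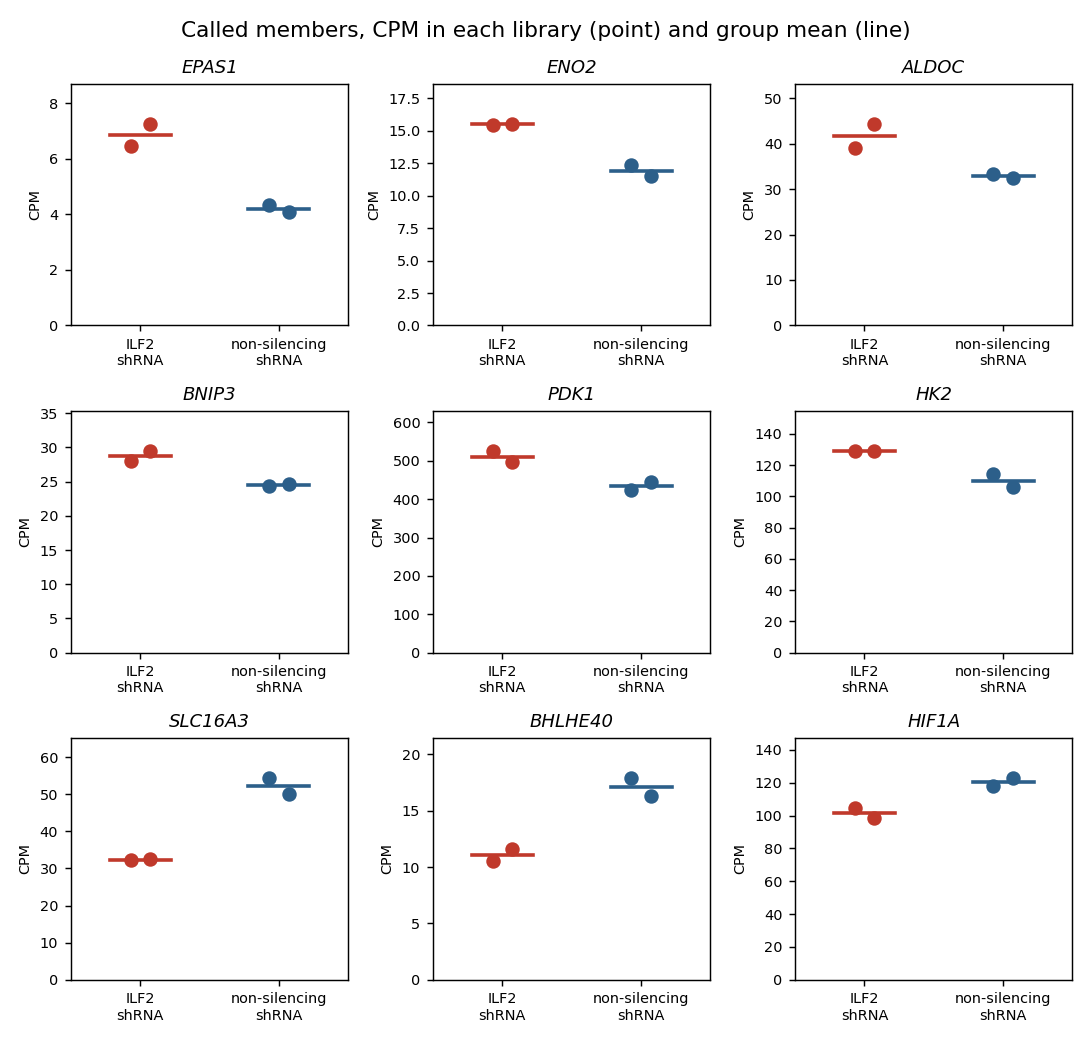
CPM (linear axes from 0) of the 9 called genes in each library (points), ILF2 shRNA left and non-silencing shRNA right, with group means as lines. EPAS1, ENO2, ALDOC, BNIP3, PDK1 and HK2 are higher and SLC16A3, BHLHE40 and HIF1A lower in both ILF2 shRNA libraries, and in none of the 9 do the groups overlap.

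In all, 11 tested hypoxia response genes were not called, with log2 fold changes from -0.15 to 0.15. PFKFB3, which makes the fructose 2,6-bisphosphate that activates phosphofructokinase, had 26.0 and 28.2 CPM with ILF2 shRNA, against 27.4 and 25.6 CPM. PFKFB4, a member of the same family, had 9.84 and 10.5 CPM against 10.1 and 10.8 CPM. Both pairs of groups overlapped. The collagen prolyl hydroxylase subunit gene P4HA1 had 107 and 102 CPM against 90.5 and 98.0 CPM, and P4HA2 had 22.3 and 23.6 CPM against 25.7 and 25.1 CPM. Neither group pair overlapped, P4HA1 being higher and P4HA2 lower without passing the test (edgeR adjusted p = 0.129 and 0.218). NDRG1, a stress gene strongly induced by hypoxia in many cell types, had 166 and 180 CPM against 193 and 186 CPM. KDM3A, a histone demethylase, had 52.6 and 49.6 CPM against 54.1 and 55.6 CPM. ANKRD37, a small hypoxia-induced gene, had 4.02 and 3.24 CPM against 3.71 and 3.64 CPM. With offsets for GC content and exon length EGLN1, NDRG1 and P4HA2 were called lower and P4HA1 higher.

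The classic hypoxia marker CA9, a surface carbonic anhydrase, and ANGPTL4, a secreted regulator of lipoprotein lipase, were too low to test. CA9 had 3 and 3 fragments in the ILF2 shRNA libraries, against 6 and 2 in the non-silencing libraries. ANGPTL4 had 5 and 1 fragments against 0 and 1. These counts allow no comparison.

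**Figure D5:**
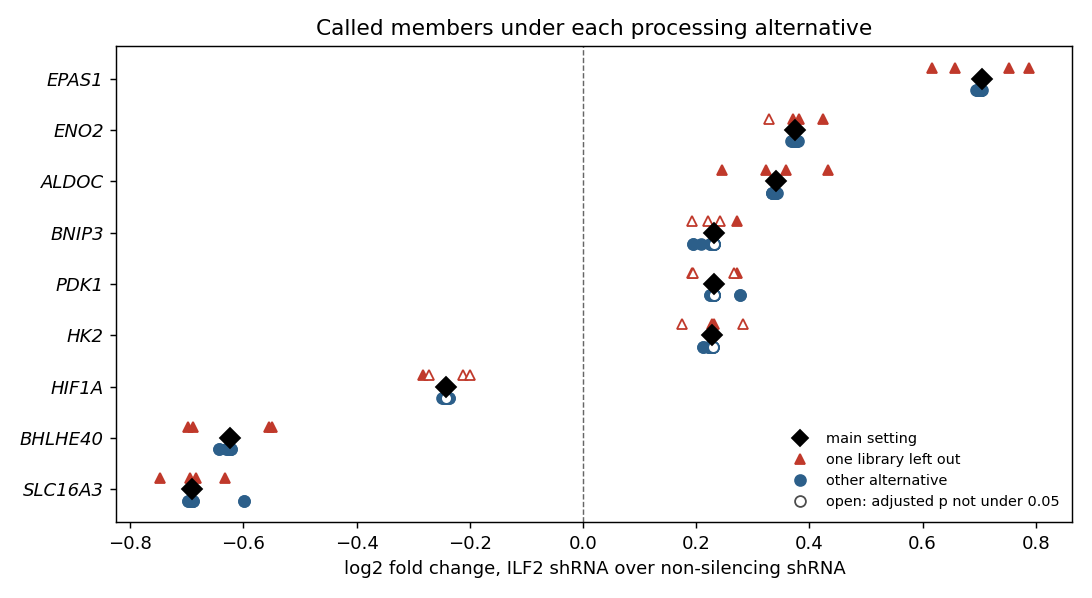
Log2 fold change (horizontal axis) of the 9 called genes in the main setting (diamonds), with 1 library left out (triangles) and in the other alternatives (circles); open symbols did not pass an adjusted p under 0.05. EPAS1, ALDOC, BHLHE40 and SLC16A3 passed in each of 16 alternatives, and ENO2 in 15, PDK1 and HK2 in 13, HIF1A in 12 and BNIP3 in 11.

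Other genes of sugar and pyruvate metabolism were read from lists of the same pathways. Of 27 further genes of glycolysis, its regulation and linked sugar phosphate steps 13 were tested. Of these 4 were higher and 9 not called (30.8% called, beside 20.3% of all genes tested). The glycolytic enzyme genes HK3, ADPGK, PGAM4 and ENO3 were among those not called. PFKFB2, the kinase of the PFKFB family known from heart, had 25.9 ± 1.45 CPM in ILF2 shRNA and 18.5 ± 1.05 CPM in non-silencing cells (SD, n = 2), a change of 0.48 ± 0.08 (SE) on the log2 scale (adjusted p = 9.1e-06, edgeR). MINPP1, a phosphatase of inositol phosphates that also acts on 2,3-bisphosphoglycerate, rose by 0.35 on the log2 scale, PGM2L1, which makes glucose 1,6-bisphosphate, by 0.34 and TIGAR, a p53 target that lowers fructose 2,6-bisphosphate, by 0.32. The calls of PGM2L1 and TIGAR ended without non-silencing replicate 1 (edgeR adjusted p = 0.069 and 0.0789).

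A list of 18 genes covered pyruvate and lactate handling. Of these 16 were tested and 1 moved in each direction (12.5% called, beside 20.3% of all genes tested). PDK2, another pyruvate dehydrogenase kinase, had 30.6 ± 3.20 CPM with ILF2 shRNA and 24.9 ± 2.04 CPM with non-silencing shRNA (SD, n = 2; log2 fold change 0.30; edgeR adjusted p = 0.0056). SLC16A7, which encodes the monocarboxylate transporter MCT2, had 30.9 and 28.0 CPM against 35.6 and 37.6 CPM (log2 fold change -0.31; edgeR adjusted p = 0.00215). Both calls ended without non-silencing replicate 2 (edgeR adjusted p = 0.238 and 0.0933), and that of PDK2 also without ILF2 shRNA replicate 2 (adjusted p = 0.164). SLC16A1, which encodes the transporter MCT1 and was named after its value was seen, had 201 CPM with ILF2 shRNA and 196 CPM with non-silencing shRNA (log2 fold change 0.04, 95% interval -0.10 to 0.17). In the pentose phosphate pathway, which makes NADPH and ribose, 12 of 13 genes were tested. In this pathway 2 genes were higher and 1 lower (25% called, beside 20.3% of all genes tested). PGD and H6PD, dehydrogenases of its oxidative arm in cytosol and endoplasmic reticulum, had log2 fold changes of 0.20 and 0.21 (edgeR adjusted p = 0.028 and 0.0358), and PRPS1, which makes phosphoribosyl pyrophosphate, -0.26 (adjusted p = 0.00292). All 3 calls ended when either non-silencing library was left out, with adjusted p (edgeR) of 0.0536 and 0.136 for PRPS1, 0.212 and 0.297 for PGD and 0.172 and 0.337 for H6PD, and those of PGD and H6PD also without ILF2 shRNA replicate 2 (edgeR adjusted p = 0.272 and 0.148).

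A list of 49 further hypoxia response genes had 45 tested, 6 higher and 9 lower (33.3% called, beside 20.3% of all genes tested). Like the members and the other lists, it was chosen with earlier results of these data known. Its median log2 fold change was -0.06, beside -0.00 for all genes tested. ADM, the gene of the vessel-widening peptide adrenomedullin, had 4.37 ± 0.170 CPM with ILF2 shRNA and 13.3 ± 0.591 CPM with non-silencing shRNA (SD, n = 2). It fell by 1.61 on the log2 scale (SE 0.10, adjusted p = 3.9e-19 by edgeR). The glucose transporter gene SLC2A1, a well-known HIF target, had 46.4 ± 2.18 CPM against 64.4 ± 3.68 CPM (SD, n = 2), a change of -0.47 ± 0.07 (SE) on the log2 scale (adjusted p = 1.1e-06, edgeR). The MYC antagonist gene MXI1 rose by 0.42 on the log2 scale and CCNG2, an atypical cyclin gene of quiescent cells, by 0.57. The calls of these 4 genes held in each alternative.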

How the data were processed

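RNA sequencing of 2 ILF2 shRNA and 2 non-silencing shRNA libraries was analysed, grouped by sample title. Each deposited file gives a count of paired fragments for every Ensembl gene (GRCh37). Per the file headers the authors counted with strand setting 2 in featureCounts, from Subread 1.4.6-p2. The submitters' processing notes name STAR 2.3.0 and SAMtools 0.1.19, while their design text names Tophat2. The recorded command sets no option to keep multi-mapped fragments, which featureCounts drops by default.

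Symbols were matched by Ensembl ID for 55665 of 63677 genes and by position (reciprocal overlap of at least 0.9) for 519, and each member matched by its ID. Counts were fitted in edgeR 4.0.16 (R 4.3.3) with TMM, filterByExpr (minimum count 10), robust dispersions and the two-sided quasi-likelihood test, group as the only term, with Benjamini-Hochberg adjustment over 19142 genes. The procedure was also run on counts simulated from the means and estimated dispersions of these data. Such counts share the assumptions of the fit, so that run cannot test those assumptions. SE came from the F statistic. CPM used TMM-adjusted library sizes, and FPKM divided CPM by the summed exon length in the files, which understates genes with many annotated but unused exons. With 2 libraries per group an exact permutation test cannot go below p = 0.333, and the biological coefficient of variation was 5.38%.

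The members and lists were chosen with earlier results of these data known. Values per library are given for called members and for HK2, GAPDH, PKM, LDHA, PFKFB3, PDK1, CA9, BNIP3, HIF1A and EPAS1, and values of other members are given as well. Of each further list up to 4 called genes with the smallest adjusted p are named. Alternatives were DESeq2 1.42.0, limma-voom (limma 3.58.1), other scaling, other filters, mitochondrial genes and small RNAs left out, a block on replicate number, a GC and exon length correction (mgcv 1.9.3) and each library left out. A crossed pairing and the addition of pseudogene counts were chosen after seeing the data.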

Additional observations from a re-analysis of the deposited data

How the results depend on the processing

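Depth did not limit most members, but EGLN3, ANKRD37 and EPAS1, at a few CPM or less, carry more counting error, and CA9 and ANGPTL4 could not be tested. Replicate numbers do not pair the libraries by any label, and deviations of same-numbered libraries from their group means had a correlation of -0.30 over 12920 genes. The cause of the changes below was not tested.

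With the replicate block 1291 genes were higher and 1297 lower over all tested, against 1960 and 1925, and 1 other hypoxia response gene was higher, against 3, the calls of HK2, PDK1, BNIP3 and HIF1A ending. A crossed pairing gave 2871 genes higher and 2857 lower in all, with 3 glycolytic enzymes higher and 3 lower, against 3 and 0. DESeq2 called 1352 genes higher and 1250 lower in all. The GC and length correction gave 2928 higher and 2939 lower in all, 3 enzymes higher and 3 lower, and 4 hypoxia response genes higher and 6 lower, against 3 and 3. Together with the replicate block it gave 3115 higher and 3100 lower in all, 3 enzymes higher and 4 lower, and 4 hypoxia response genes higher and 6 lower. No called member changed direction in any alternative.

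When 1 library was left out, genes higher numbered 1029 to 1899 and genes lower 1070 to 1822, enzymes higher 1 to 3 and lower 0 to 3, and hypoxia response genes higher 1 to 3 and lower 2 to 3. Several uncalled members near 0 changed sign. The log2 fold change of GPI was 0.0009 with the GC and length correction and 0.0005 with the block added, and that of PDK3 -0.0047 and -0.0061. For PFKL it was -0.0035 with upper-quartile factors, -0.0050 with no filter and -0.0012 with at least 1 CPM in 2 libraries. Left-out libraries moved HK1 between -0.0387 and 0.0945, GPI between -0.0843 and 0.0696, PFKL between -0.0489 and 0.0560, ALDOA between -0.1540 and 0.0156, PGAM1 between -0.1345 and 0.0140, ENO1 between -0.0648 and 0.0563, PDK3 between -0.0379 and 0.0656, PFKFB3 between -0.0267 and 0.0908, PFKFB4 between -0.0834 and 0.0157 and ANKRD37 between -0.1802 and 0.1286.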
